A study of Mus musculus with 33 samples.

Results

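The genes described here are 10 mouse heat shock chaperone genes, Hspa1a, Hspa1b, Hspa8, Hspa5, Hsp90aa1, Hsp90ab1, Dnaja1, Dnajb1, Hsph1 and Hspe1, followed over all sorted groups of CD8 T cells from skin. The rule that defines them is a list of symbols and uses no measured value. They are 10 of the 19449 genes listed in either of the deposited read count tables, and each of them stands in both tables and passed the filter on low counts in both. RNA was measured by CEL-seq2, a protocol that reads the 3′ ends of transcripts, in 33 bulk libraries of sorted CD8 T cells (live, CD45+CD8+). The cells came from the skin of mice sensitised to dinitrofluorobenzene (DNFB), a hapten that causes contact allergy. The study followed resident memory T cells (TRM, CD69+CD103+ here), which stay in the skin, and how topical treatment with TA, a glucocorticosteroid used at 0.01%, acts on them.

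The first experiment used Nur77GFP mice, whose GFP marks cells with recent T cell receptor signals. Its 17 libraries were all CD69+CD103+ TRM from skin treated with TA or with acetone, the vehicle. They were taken at day 1, 24 hours after DNFB retest, as GFP-positive and GFP-negative cells (2 libraries each for TA and acetone), at day 6, 144 hours after retest, as GFP-negative cells (2 TA, 2 acetone), and at day 0, just before retest, as GFP-negative cells (2 TA, 3 acetone). The second experiment used wild-type C57BL/6 mice and gave 16 libraries, 2 per group. They were CD69+CD103+ TRM from skin treated with TA or acetone at day 11 and at day 42 after DNFB challenge, and untreated cells of 4 subsets, by CD69 and CD103, at day 2. The GFP reporter is present in every mouse of the first experiment, also in GFP-negative cells, and the mice behind a sorted group were not stated to be separate animals, so the p-values cover the spread between libraries alone, which may be technical.

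The column headers of the tables carry codes, and a group is named here where just 1 reading of the code fits the labels. Named in this way were day 0 acetone (code 1, the only set with 3 libraries), the GFP states of day 1 and CD69+CD103+ cells of day 2. Codes 3 and 4 are the day 1 arms, 1 of them TA and the other acetone, and the header does not say which. Codes 2, 5 and 6 are day 0 TA and both day 6 groups in an order the headers do not give. In the second table, sets 2, 3, 4 and 5 are the day 11 and day 42 groups, and subsets 02, 04 and 05 are the other day 2 subsets. No treatment was read from expression values.

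Library totals were 2442825 to 8515297 counts in the first experiment and 2937814 to 13629838 in the second, and mitochondrial genes took 22.2 to 36.7% of counts in the first and 12.8 to 21.3% in the second. Of 15 CD8 T cell identity genes, 12 were in the tables and all 12 were detected in every library, with summed levels of 4793 to 9915 CPM (counts scaled to the same total in each library) in the first experiment and 5191 to 8745 CPM in the second. Every library also held RNA of keratinocyte markers (642 to 8814 CPM summed in the first experiment, 2686 to 10247 CPM in the second). A member gene had 37 to 24003 counts per library in the first experiment and 491 to 50490 in the second. In bulk RNA, more cells with a gene's RNA and more RNA per cell cannot be told apart.

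Chaperones bind unfolded or partly folded proteins and keep them from clumping while they fold. Hsp70 proteins (Hspa1a, Hspa1b, Hspa8 in the cytosol, Hspa5 in the endoplasmic reticulum) hold clients in a cycle driven by ATP, J-domain proteins (Dnaja1, Dnajb1) deliver the clients and start ATP hydrolysis, and Hsph1 releases the nucleotide. Hsp90 proteins (Hsp90aa1, Hsp90ab1) take over late folding steps of kinases and of steroid receptors, the glucocorticoid receptor among them. The inducible genes of this group are transcribed by heat shock factor 1 during heat or other protein stress, and enzymatic dissociation of a tissue is known to raise them together with immediate-early genes. Hspa5 (BiP) is instead a textbook target of the unfolded protein response, and Hspe1 is the lid of the mitochondrial chaperonin formed by Hspd1.

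Promoter windows, from 250 bases before to 50 bases after a start site, were taken from RefSeq (GRCm38.p6). They matched 7 of the 10 genes, with 11 windows in all, and Hspa8, Hsp90aa1 and Hsp90ab1 had none. The windows of 4 genes are shown, picked by the levels of these genes. Hspa5 had the widest span of set means in the first experiment and Hspa1b in the second. Hsph1 rose in both GFP-positive and late cells against their earlier counterparts, and Hspe1 had the narrowest span in both experiments. Whether the motifs bear on these levels was not tested. Capitals mark the ER stress element in Hspa5 (chr2:34771840-34772139, plus strand), a 2-unit heat shock element in Hspa1b (chr17:34959189-34959488, minus strand), and 3-unit heat shock elements in Hsph1 (chr5:149636266-149636565, minus strand) and Hspe1 (chr1:55087898-55088197, plus strand).
Hspa5: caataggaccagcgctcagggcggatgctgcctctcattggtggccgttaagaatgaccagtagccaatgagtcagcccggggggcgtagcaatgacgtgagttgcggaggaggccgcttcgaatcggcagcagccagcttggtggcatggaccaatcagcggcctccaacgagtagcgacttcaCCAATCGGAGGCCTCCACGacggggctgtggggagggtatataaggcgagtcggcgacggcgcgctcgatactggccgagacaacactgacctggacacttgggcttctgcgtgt
Hspa1b: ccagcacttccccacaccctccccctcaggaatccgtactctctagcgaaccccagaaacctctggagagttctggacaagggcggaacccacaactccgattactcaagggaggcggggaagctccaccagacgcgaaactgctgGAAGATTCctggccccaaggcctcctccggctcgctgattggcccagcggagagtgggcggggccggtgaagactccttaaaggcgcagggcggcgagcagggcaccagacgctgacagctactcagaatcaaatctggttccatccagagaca
Hsph1: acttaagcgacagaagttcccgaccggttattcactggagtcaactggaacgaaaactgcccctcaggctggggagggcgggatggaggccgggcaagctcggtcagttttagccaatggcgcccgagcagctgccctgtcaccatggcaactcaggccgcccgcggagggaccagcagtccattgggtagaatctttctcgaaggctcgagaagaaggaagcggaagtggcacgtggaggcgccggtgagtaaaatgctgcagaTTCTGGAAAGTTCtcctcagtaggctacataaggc
Hspe1: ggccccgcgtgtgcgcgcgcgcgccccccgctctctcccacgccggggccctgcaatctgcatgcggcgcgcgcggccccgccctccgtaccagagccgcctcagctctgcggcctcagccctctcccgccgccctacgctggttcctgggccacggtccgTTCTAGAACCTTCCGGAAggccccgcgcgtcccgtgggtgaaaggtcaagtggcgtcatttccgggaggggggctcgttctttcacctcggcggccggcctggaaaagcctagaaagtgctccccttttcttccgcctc

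Motifs were searched as letters on both strands. The 3-unit heat shock element GAANNTTCNNGAA was in 198 of 32851 RefSeq promoter windows (0.603%) and in 3 of the 11 windows of these genes. These were both of Hsph1 and that of Hspe1, where matches at positions -89 and -84 from the start site overlap. The 2 Hsph1 windows overlap, and their element is 1 site, at positions 37 and 16, after the start site of each. The windows are thus not independent, and the counts of windows here hold that site for each. The 2-unit form GAANNTTC was in 7.86% of all windows and in 6 of the 11, at -104 in both Hspa1a and Hspa1b and at -124 in 1 window of Dnaja1. The reverse arrangement TTCNNGAA was in 8.52% of all windows and in 3 of the 11, each of which also holds a 3-unit element that overlaps it. Both Hsph1 windows hold a further match, again 1 site, at -33 and -54, that lies apart from their 3-unit element. The ER stress element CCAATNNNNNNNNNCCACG was in 39 windows (0.119%) and, among these genes, in Hspa5 at -65. A plain TATAAA box was in 13.6% of windows and in 0 of the 11. A match describes these letters only.

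Hspa1a (chr17:34969190-34972156) and Hspa1b (chr17:34956436-34959238), both on the minus strand in GENCODE vM21 (GRCm38), are near-identical neighbours. Their promoter windows had the same base at 296 of 300 positions (98.7%), and 56.3% of the 60-base stretches of the Hspa1a transcript also occur in Hspa1b. In the last 500 bases, where CEL-seq2 reads fall, 0 of 441 such stretches were shared, so the 2 genes were counted apart here, with their sum as an alternative. Hspe1 overlaps Hspd1, Dnaja1 overlaps Gm6297 and Smu1, and Hspa1a overlaps Gm20481, each on the opposite strand. How strands were used in counting was not given in the sources used here, so reads of these pairs could be split uncertainly.

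Every gene except Dnajb1 differed among the 8 sets of the first experiment (9 of 10, against 30.6% of the 11588 genes tested; edgeR's quasi-likelihood test, Benjamini-Hochberg adjusted p 2.66e-11 for Hspa5 to 0.00918 for Hspe1, and 0.139 for Dnajb1). Hspa5 had the widest span of set means, 7.76-fold between GFP-positive cells of the code 3 arm and code 2. Hsph1 spanned 3.97-fold, Hsp90ab1 2.97-fold and Hsp90aa1 2.96-fold, while Dnajb1 spanned 1.76-fold and Hspe1 1.61-fold. GFP-positive cells of the code 3 arm had the highest mean of 6 of the 10 genes, and code 2 had the lowest mean of 5.

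**Figure D1:**
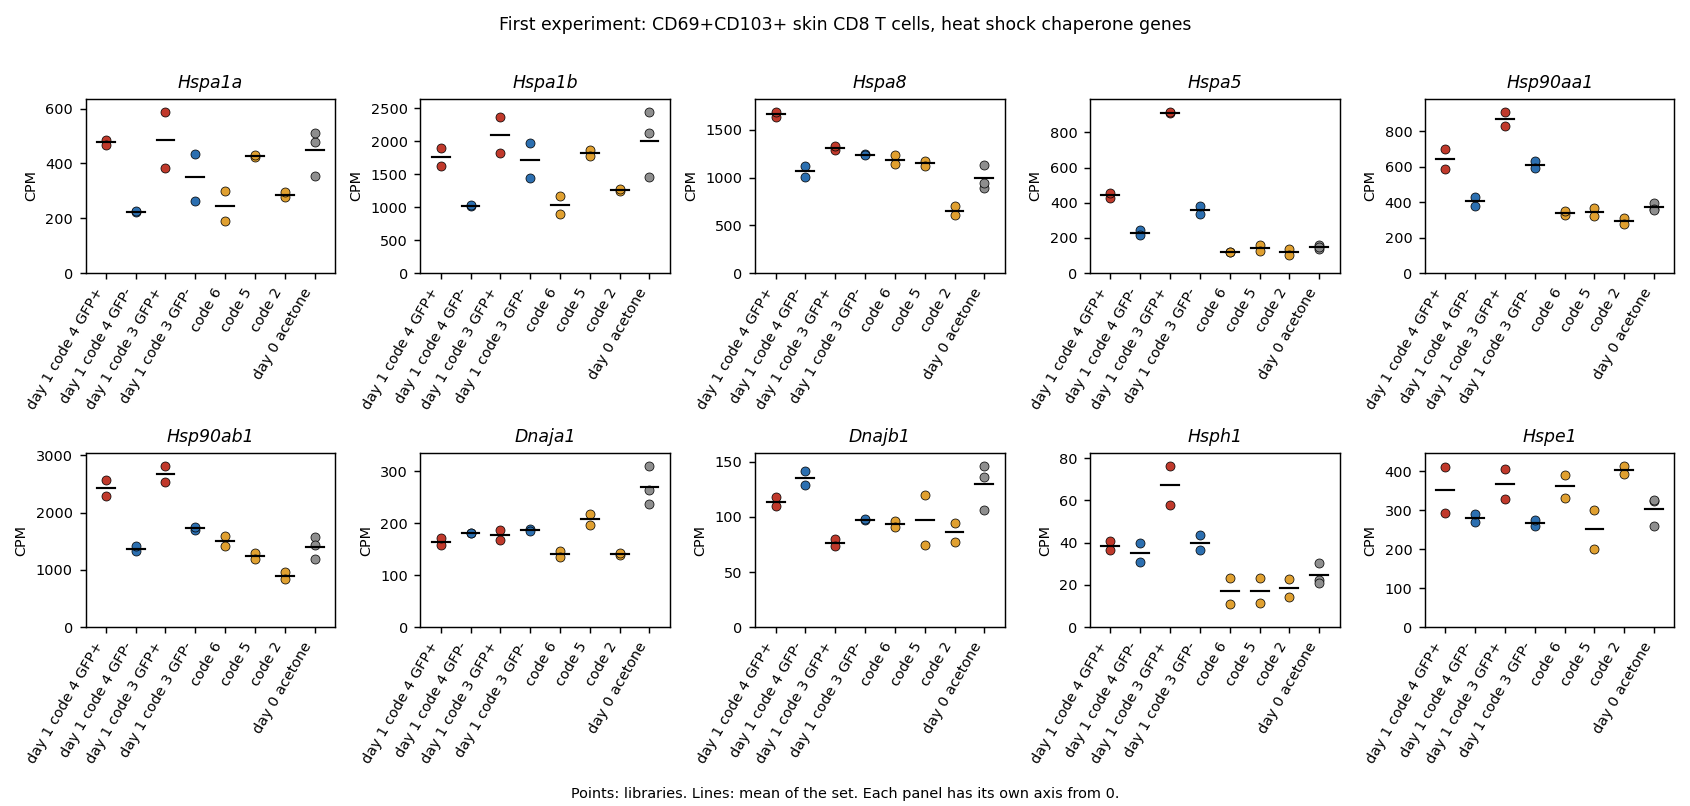
Levels of the 10 chaperone genes (y axis, CPM, linear from 0) in each library of the first experiment, by set, with a line at the set mean. Hspa5 reaches 908 and 918 CPM in GFP-positive cells of the code 3 arm and lies at 100.3 to 161 CPM in codes 6, 5, 2 and day 0 acetone; Dnaja1 is highest at day 0 acetone.

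At day 1, GFP-positive TRM had 7 of the 10 genes higher than GFP-negative TRM, taken as the mean over both arms, and none was lower. In that comparison 12.1% of all tested genes passed the same threshold (adjusted p under 0.05), 5.59% as higher and 6.51% as lower. The median log2 fold change of the 10 genes was 0.62, beside -0.03 over all genes. The 7 were both Hsp90 genes, all 4 Hsp70 genes and Hspe1, and the genes that did not pass were both J-domain genes and Hsph1. As a check of the sort at day 1, Nr4a1, which encodes Nur77, had 3317 to 4433 CPM in GFP-positive libraries and 814 to 1343 CPM in GFP-negative libraries. GFP-negative cells of day 0 acetone had 1461 to 2371 CPM of Nr4a1, above every day 1 GFP-negative library and below every GFP-positive one. Code 5 had 1493 and 1628 CPM, code 2 had 848 and 907 CPM and code 6 had 505 and 850.5 CPM.

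Hspa5 encodes BiP, the Hsp70 of the endoplasmic reticulum. It had 426 and 458 CPM in GFP-positive libraries of the code 4 arm and 908 and 918 CPM in those of the code 3 arm, against 243 and 218 CPM in GFP-negative libraries of the code 4 arm and 333 and 381 CPM in those of the code 3 arm. No GFP-negative library reached a GFP-positive one. The log2 fold change was 1.28 ± 0.13 (SE; edgeR's quasi-likelihood test, Benjamini-Hochberg adjusted p = 8.50e-07).

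Hsp90ab1, the constitutive cytosolic Hsp90, had 2296 and 2569 CPM in GFP-positive libraries of the code 4 arm and 2819 and 2540.0 CPM in those of the code 3 arm, against 1335 and 1412 CPM in GFP-negative libraries of the code 4 arm and 1701 and 1753 CPM in those of the code 3 arm. The groups did not overlap, and the fold change was 0.86 ± 0.08 on the log2 scale (edgeR adjusted p = 5.29e-07). Its inducible paralogue Hsp90aa1 had 586 and 697 CPM in GFP-positive libraries of the code 4 arm and 910.4 and 827 CPM in those of the code 3 arm, against 378 and 432 CPM in GFP-negative libraries of the code 4 arm and 634 and 589.7 CPM in those of the code 3 arm. Within each arm the GFP-positive libraries were higher, except that a GFP-positive library of the code 4 arm (586 CPM) lay below both GFP-negative libraries of the code 3 arm. Hsp90aa1 rose by 0.72 ± 0.10 on the log2 scale (edgeR adjusted p = 8.30e-05).

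Among the cytosolic Hsp70 genes, Hspa8, the constitutive form, had 1635 and 1693 CPM in GFP-positive libraries of the code 4 arm and 1286 and 1337 CPM in those of the code 3 arm, against 1004 and 1127 CPM in GFP-negative libraries of the code 4 arm and 1246 and 1234 CPM in those of the code 3 arm. The groups did not overlap, but in the code 3 arm they came close. The inducible gene Hspa1b had 1898 and 1627 CPM in GFP-positive libraries of the code 4 arm and 2375 and 1816 CPM in those of the code 3 arm, against 1012 and 1029.7 CPM in GFP-negative libraries of the code 4 arm and 1444 and 1976 CPM in those of the code 3 arm. Hspa1a had 487 and 469 CPM in GFP-positive libraries of the code 4 arm and 589 and 382 CPM in those of the code 3 arm, against 223 and 227 CPM in GFP-negative libraries of the code 4 arm and 265 and 436 CPM in those of the code 3 arm. For both inducible genes the code 3 libraries overlapped in CPM and the code 4 libraries did not. With TMM scaling of library totals, which the fold changes use, the code 3 libraries did not overlap either. There Hspa1b had log2 CPM of 11.39 and 11.10 against 10.61 and 10.95, and Hspa1a 9.38 and 8.85 against 8.16 and 8.77. The log2 fold changes over both arms were 0.49 ± 0.09 for Hspa8, 0.67 ± 0.11 for Hspa1b and 0.91 ± 0.15 for Hspa1a (edgeR adjusted p = 0.000544, 0.0004 and 0.000263 in that order).

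The J-domain genes did not pass the test. Dnaja1 had 158 to 187 CPM in the 4 GFP-positive libraries and 181 to 188 CPM in the 4 GFP-negative libraries, a log2 difference of 0.02 ± 0.12. Dnajb1, the J-domain partner of the inducible Hsp70, had 73.9 to 118 CPM in GFP-positive libraries and 97 to 141 CPM in GFP-negative libraries (-0.16 ± 0.16; edgeR adjusted p = 0.605). Hsph1, the nucleotide exchange factor, had 36.6 to 76.5 CPM in GFP-positive and 31 to 43.7 CPM in GFP-negative libraries, with the largest SE of the 10 genes (0.56 ± 0.28; adjusted p = 0.221 by the same edgeR test). Hspe1 passed, with 292 to 411 CPM in GFP-positive libraries and 261 to 291 CPM in GFP-negative libraries and a log2 fold change of 0.53 ± 0.15 (edgeR adjusted p = 0.0232). The Hspe1 call was lost without either GFP-negative library of the code 3 arm, without GFP-positive library B of the code 3 arm or without GFP-positive library A of the code 4 arm, where its adjusted p reached 0.12.

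Taken arm by arm, GFP-positive cells had 6 of the 10 genes higher in the code 4 arm (8.07% of all genes called, 4.06% as higher) and 3 in the code 3 arm (5.36% called, 2.33% as higher). Hspa5, Hsp90ab1 and Hsp90aa1 passed in both arms, with log2 fold changes of 1.04 ± 0.18, 0.93 ± 0.12 and 0.77 ± 0.15 in the code 4 arm and 1.52 ± 0.18, 0.79 ± 0.12 and 0.66 ± 0.15 in the code 3 arm. In the code 3 arm the Hsp90aa1 call was lost without GFP-negative library B or GFP-positive library A (adjusted p up to 0.137). Hspa1a (1.19 ± 0.21), Hspa1b (0.89 ± 0.16) and Hspa8 (0.75 ± 0.12) passed in the code 4 arm, where their differences in the code 3 arm were 0.64 ± 0.21, 0.46 ± 0.16 and 0.24 ± 0.12 with adjusted p of 0.0912, 0.125 and 0.345 in edgeR's test. The test of the difference between the arms' GFP effects called none of the 10 genes, in a comparison that called 0.889% of all genes. The smallest adjusted p there was 0.226, for Hspa8 (0.50 ± 0.17), and DESeq2 called Hspa8 alone.

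Among genes of the other chaperone lists that passed in GFP-positive cells, all were higher. Of 30 tested genes of the endoplasmic reticulum list, 6 were higher and 0 lower (median log2 fold change 0.35), among them Calr (1.01 ± 0.12), Pdia6 (0.97 ± 0.16) and Hsp90b1 (0.83 ± 0.16), which are folding factors of the same compartment as BiP. Of 13 subunits of the chaperonin CCT and prefoldin, 5 were higher and 0 lower (median 0.44; Cct6a 0.89 ± 0.15, Cct3 0.95 ± 0.20 and Cct2 0.53 ± 0.12). Of 10 mitochondrial chaperones and proteases, 3 were higher: Hspd1 (1.27 ± 0.37), the ring that Hspe1 caps, Hspa9 (1.00 ± 0.21) and Grpel1 (1.12 ± 0.29). Of 35 genes listed as other cytosolic chaperones and cochaperones, 4 were higher and 0 lower, with a median of 0.28. They included Ptges3 (0.71 ± 0.13), Dnajc2 (0.70 ± 0.19) and Cdc37 (0.48 ± 0.15). Ptges3 and Cdc37 are cochaperones of Hsp90. None of the heat shock factor genes Hsf1, Hsf2 and Hsf4 passed. Of 25 immediate-early genes, 13 were higher and 0 lower (median 0.64; Gadd45b 2.30 ± 0.14, Dusp2 2.07 ± 0.16), a list that includes the sort gene Nr4a1.

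**Figure D2:**
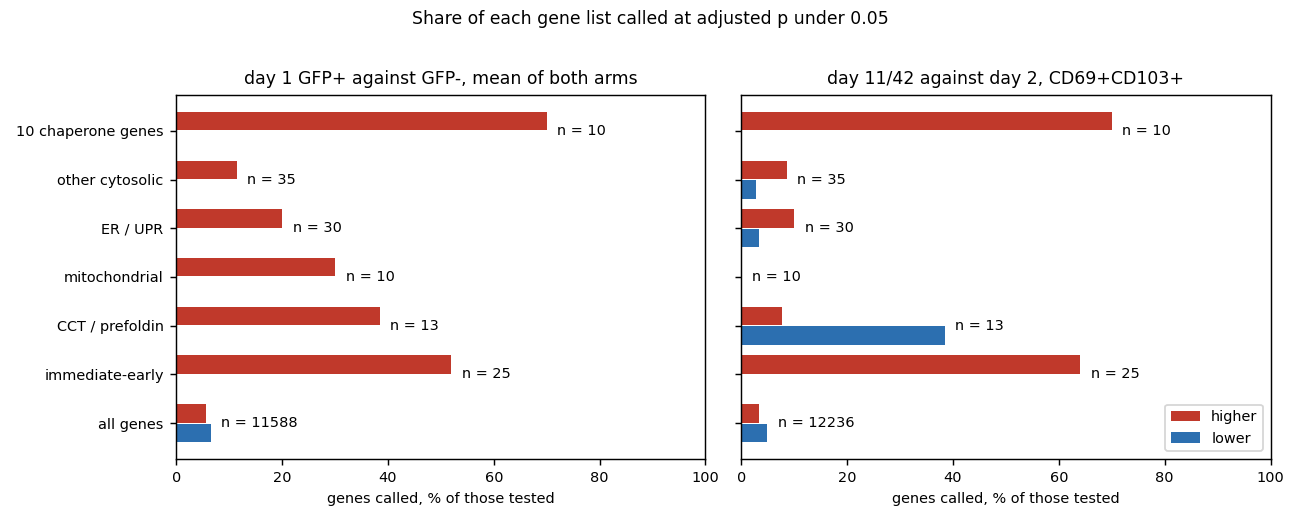
Share of each gene list called as higher or lower (x axis, % of the list's tested genes, adjusted p under 0.05) in day 1 GFP-positive against GFP-negative cells (left) and in day 11 and day 42 against day 2 CD69+CD103+ cells (right). Of the 10 chaperone genes 7 are higher in each; the CCT and prefoldin list has 5 of 13 genes higher on the left and 5 of 13 lower on the right.

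Libraries of the sorted GFP states also differed in other measures. The summed level of keratinocyte markers was 642 to 2195 CPM in GFP-positive and 750 to 3821 CPM in GFP-negative libraries, with 1 of 23 tested markers higher and 5 lower. Mononuclear phagocyte markers summed to 333 to 915 CPM in GFP-positive and 64.7 to 936 CPM in GFP-negative libraries, with 5 of 15 higher. Mitochondrial genes took 22.4 to 30.1% of counts in GFP-positive and 28.4 to 36.7% in GFP-negative libraries. With the marker genes of other cells left out, with mitochondrial genes left out, with libraries thinned to equal depth or with the immediate-early genes left out (the last 2 chosen after seeing the data), 7 of the 10 chaperone genes were called each time.

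Between the arms, GFP-negative cells of the code 4 arm had lower levels than those of the code 3 arm for 3 of the 10 genes (6.69% of all genes called, 4.7% as lower), and GFP-positive cells for 2 (3.17% called, 2.24% as lower). The median log2 fold changes of the 10 genes were -0.33 and -0.23, beside -0.07 and -0.09 over all genes. Outside the 10, the small heat shock protein gene Hspb1 was lower in GFP-negative cells of the code 4 arm (-2.02 ± 0.34), and Fkbp5, an Hsp90 cochaperone of steroid receptors, was higher (1.71 ± 0.37). Keratinocyte markers in the same cells summed to 750 to 1006 CPM, against 3712 to 3821 CPM in the code 3 arm. The part of other cells' RNA in the Hspb1 difference was not tested. Of the 10 genes, Hspa5 had the largest difference in GFP-positive cells, where it fell by 1.16 ± 0.18 on the log2 scale (edgeR's quasi-likelihood test, adjusted p = 0.000628). Its levels of 426 and 458 CPM in the code 4 arm and 908 and 918 CPM in the code 3 arm did not overlap. In GFP-negative cells it fell by 0.68 ± 0.18 (243 and 218 CPM against 333 and 381 CPM; edgeR adjusted p = 0.0277), a call that was lost without any 1 of the 4 libraries compared (adjusted p up to 0.154) and with libraries thinned to equal depth.

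Hspa1b in GFP-negative cells was 1012 and 1029.7 CPM in the code 4 arm and 1444 and 1976 CPM in the code 3 arm and fell by 0.79 ± 0.16 (edgeR adjusted p = 0.00466). Its neighbour Hspa1a did not pass (223 and 227 CPM against 265 and 436 CPM, -0.68 ± 0.21, adjusted p = 0.0597 in the same edgeR test) but was called by DESeq2. Hsp90aa1 fell by 0.65 ± 0.15 in GFP-negative cells (378 and 432 CPM against 634 and 589.7 CPM; edgeR adjusted p = 0.0102), a call lost without library A of either arm (adjusted p up to 0.0959). In GFP-positive cells it was 0.55 ± 0.15 lower with an edgeR adjusted p of 0.047, which 4 of 9 other settings and the loss of single libraries moved past the threshold (up to 0.333): GFP-positive libraries A and B of the code 3 arm, A of the code 4 arm, and B of code 6. Dnajb1 had values on the other side in both GFP states, 129 and 141 CPM in the code 4 arm against 97 and 97.8 CPM in the code 3 arm among GFP-negative cells and 109.7 and 118 CPM against 79.7 and 73.9 CPM among GFP-positive cells. Neither difference passed (0.42 ± 0.23 and 0.46 ± 0.23; edgeR adjusted p = 0.323 and 0.361). Hspa8 was on the other side in GFP-positive cells, at 1635 and 1693 CPM in the code 4 arm against 1286 and 1337 CPM in the code 3 arm without overlap (0.23 ± 0.12; edgeR adjusted p = 0.398), and lower in GFP-negative cells, at 1004 and 1127 CPM against 1246 and 1234 CPM (-0.27 ± 0.12; edgeR adjusted p = 0.217), passing in neither.

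The 2 arms also differed in the RNA of other cells and in depth. In GFP-negative cells the keratinocyte markers summed to 750 to 1006 CPM in the code 4 arm and 3712 to 3821 CPM in the code 3 arm, with 13 of 23 tested markers lower. Mononuclear phagocyte markers summed to 64.7 to 91.3 CPM in the code 4 arm and 897 to 936 CPM in the code 3 arm, with 8 of them at 0 in the code 4 arm (C1qa, C1qb, C1qc, Csf1r, Mrc1, Cd209a, Tyrobp and Lyz2) and 1, Lyz2, at 0 in the code 3 arm. Totals were 2442825 to 3262545 counts in the code 4 arm and 5440609 to 8515297 in the code 3 arm, and mitochondrial genes took 29.3 to 36.7% of counts in the code 4 arm and 22.4 to 28.6% in the code 3 arm. In GFP-positive cells, where Hspa5 differed most, keratinocyte markers summed to 642 to 806 CPM in the code 4 arm and 1744 to 2195 CPM in the code 3 arm (12 of 23 lower, 1 higher; Ivl and Krt77 at 0 in both). Mononuclear phagocyte markers summed to 333 to 381 CPM in the code 4 arm, with Mrc1, Cd209a, Itgam and Lyz2 at 0, and 741 to 915 CPM in the code 3 arm (1 of 15 lower). With the marker genes left out, both calls in GFP-positive cells held, and Hspa1a and Hsp90ab1 passed in GFP-negative cells as well, 5 of 10 genes in all. The part of other cells' RNA in the remaining differences was not tested. Of the endoplasmic reticulum list, 5 of 30 genes were lower and 0 higher in GFP-negative cells (Calr -1.18 ± 0.17, Edem1 -1.50 ± 0.32, Manf -0.87 ± 0.20).

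Against day 0 acetone, day 1 GFP-positive cells had 6 genes higher and 1 lower (25.6% of all genes called, 10.8% as higher and 14.7% as lower; median log2 fold change 0.72 for the 10 genes and -0.18 for all). Day 1 GFP-negative cells had 4 higher and 1 lower (7.02% called, 3.12% as higher and 3.91% as lower; median 0.18, beside -0.12). These comparisons and those of codes 6, 5 and 2 below share the same 3 day 0 libraries, and the day 1 groups hold both arms. Hspa5 had 426 to 918 CPM in the 4 GFP-positive libraries and 218 to 381 CPM in the 4 GFP-negative libraries, against 138, 161 and 150.5 CPM at day 0. Both day 1 states lay above all day 0 libraries. The log2 fold changes were 2.39 ± 0.15 in GFP-positive cells and 1.10 ± 0.14 in GFP-negative cells (edgeR's quasi-likelihood test, adjusted p = 4.73e-10 and 4.83e-05). By arm, Hspa5 was 1.81 ± 0.16 higher in GFP-positive cells of the code 4 arm (18.9% of all genes called) and 2.97 ± 0.17 higher in those of the code 3 arm (19% called), which was the largest of the 10 genes' fold changes in any comparison made here.

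Hsp90aa1 had 586 to 910.4 CPM in GFP-positive and 378 to 634 CPM in GFP-negative libraries of day 1, against 393, 362 and 357 CPM at day 0. It rose by 1.32 ± 0.12 in GFP-positive cells and by 0.60 ± 0.11 in GFP-negative cells (edgeR adjusted p = 5.82e-08 and 0.00216). In plain CPM, 1 GFP-negative library (378 CPM, code 4) lay within the day 0 range. With TMM scaling that library (log2 CPM 8.58) lay above every day 0 library (8.47 at most). In the code 3 arm alone GFP-negative cells passed (0.93 ± 0.13; 3.94% of all genes called) and in the code 4 arm they did not (0.28 ± 0.13; edgeR adjusted p = 0.221; 8.63% called). Hsp90ab1 had 2296 to 2819 CPM in GFP-positive libraries, against 1570.3, 1185 and 1435 CPM at day 0, with no overlap (1.19 ± 0.09; edgeR adjusted p = 1.13e-08). Hspa8 had 1286 to 1693 CPM in GFP-positive libraries, against 1137, 889.5 and 949 CPM at day 0, again with no overlap (0.89 ± 0.10; edgeR adjusted p = 8.81e-07). Hsph1 had 36.6 to 76.5 CPM against 22.4, 20.8 and 30.4 CPM and rose by 1.37 ± 0.32 (edgeR adjusted p = 0.00293). In GFP-negative cells Hspa8 (0.40 ± 0.09) and Hsp90ab1 (0.33 ± 0.09) also passed, but their libraries overlapped day 0 in CPM. With TMM scaling Hspa8 did not overlap (log2 CPM 9.98 to 10.39 against 9.69 to 9.94), and Hsp90ab1 still did. Those 2 calls were lost in 4 and 10 of the 17 refits that left out 1 library (adjusted p up to 0.134 and 0.222); the libraries were day 0 B and C, GFP-negative A of code 3 and B of code 4 for Hspa8, and these with GFP-negative B and GFP-positive B of code 3, GFP-negative A of code 4, both of code 5 and A of code 6 for Hsp90ab1. The Hsp90ab1 call was also lost with RLE size factors, with no filter on low counts and with the marker genes of other cells left out (edgeR adjusted p = 0.0649, 0.0608 and 0.0619 in that order). A replicate block by library letter lost the calls of both Hspa8 and Hsp90ab1 in GFP-negative cells.

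The inducible Hsp70 genes and the J-domain gene Dnaja1 passed as lower or not at all in the comparisons over both arms. Hspa1b had 1627 to 2375 CPM in GFP-positive and 1012 to 1976 CPM in GFP-negative libraries, against 2449.8, 1454 and 2130.4 CPM at day 0. GFP-positive and day 0 libraries overlapped fully (0.26 ± 0.12; edgeR adjusted p = 0.14). In GFP-negative cells of the code 4 arm, at 1012 and 1029.7 CPM and below every day 0 library, Hspa1b fell by 0.81 ± 0.15 (edgeR adjusted p = 0.00162), while in the code 3 arm it did not pass (-0.02 ± 0.15). Over both arms it was lower in GFP-negative cells (-0.42 ± 0.12; edgeR adjusted p = 0.0447), a call lost without day 0 library A or C, GFP-negative library A of code 3 or either GFP-negative library of code 4 (adjusted p up to 0.221). That call was also lost with a replicate block by library letter. In GFP-positive cells of the code 3 arm Hspa1b was higher than at day 0 (0.44 ± 0.15; edgeR adjusted p = 0.0429), a call that held in 4 of 9 other settings and in 12 of 17 refits without 1 library (adjusted p up to 0.39). Hspa1a fell in GFP-negative cells of the code 4 arm (223 and 227 CPM against 479, 354 and 513 CPM; -0.83 ± 0.20; edgeR adjusted p = 0.0107), a call lost without either of the code 4 libraries (adjusted p up to 0.0559). Dnaja1 was lower in all 8 day 1 libraries (158 to 188 CPM) than in the 3 day 0 libraries (263, 237 and 310.5 CPM). Its log2 differences were -0.35 ± 0.13 in GFP-positive and -0.37 ± 0.13 in GFP-negative cells, with edgeR adjusted p of 0.0479 and 0.0831. The first of these held in 3 of 9 other settings and in 6 of 17 refits without 1 library, with an adjusted p of up to 0.222.

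Hspe1 had 292 to 411 CPM in GFP-positive libraries, against 259.7, 323 and 327 CPM at day 0, which overlapped. With TMM scaling the lowest GFP-positive value (log2 CPM 8.317) lay just above the highest at day 0 (8.3055). The log2 fold change was 0.55 ± 0.16 (edgeR adjusted p = 0.0157). That call was lost without day 0 library A or C, GFP-positive library B of code 3 or GFP-positive library A of code 4 (adjusted p up to 0.0843). Dnajb1 had 73.9 to 118 CPM in GFP-positive and 97 to 141 CPM in GFP-negative libraries, against 136, 106 and 146 CPM at day 0, and passed in neither comparison. Among the other lists, GFP-positive cells had 8 of 13 CCT and prefoldin genes higher and 0 lower (median 0.92; Cct3 1.79 ± 0.22), 10 of 30 endoplasmic reticulum genes higher and 1 lower (median 0.69; Xbp1, a transcription factor of the unfolded protein response, 1.38 ± 0.20), and Hsf1 higher (1.27 ± 0.31). GFP-negative cells had 2 of 13 and 1 of 30 genes of these lists higher. Of the 25 immediate-early genes, GFP-positive cells had 12 higher and 4 lower, and GFP-negative cells had 4 higher and 9 lower. CD8 T cell identity genes summed to 4793 to 5449 CPM in GFP-positive libraries (3 of 12 higher, 5 lower). In GFP-negative libraries they summed to 5243 to 6680 CPM (1 higher, 4 lower), against 8340 to 9915 CPM at day 0. Keratinocyte markers summed to 642 to 2195 CPM in GFP-positive and 750 to 3821 CPM in GFP-negative libraries, against 4356 to 4791 CPM at day 0. Neutrophil markers summed to 11.6 to 85.4 CPM and 11.5 to 93.2 CPM in that order, against 4.01 to 19.1 CPM at day 0. With marker genes of other cells left out, the Hsp90ab1 call in GFP-negative cells and the Hspa1b call in GFP-positive cells of the code 3 arm were lost; the part of other cells' own chaperone RNA was not tested.

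**Figure D3:**
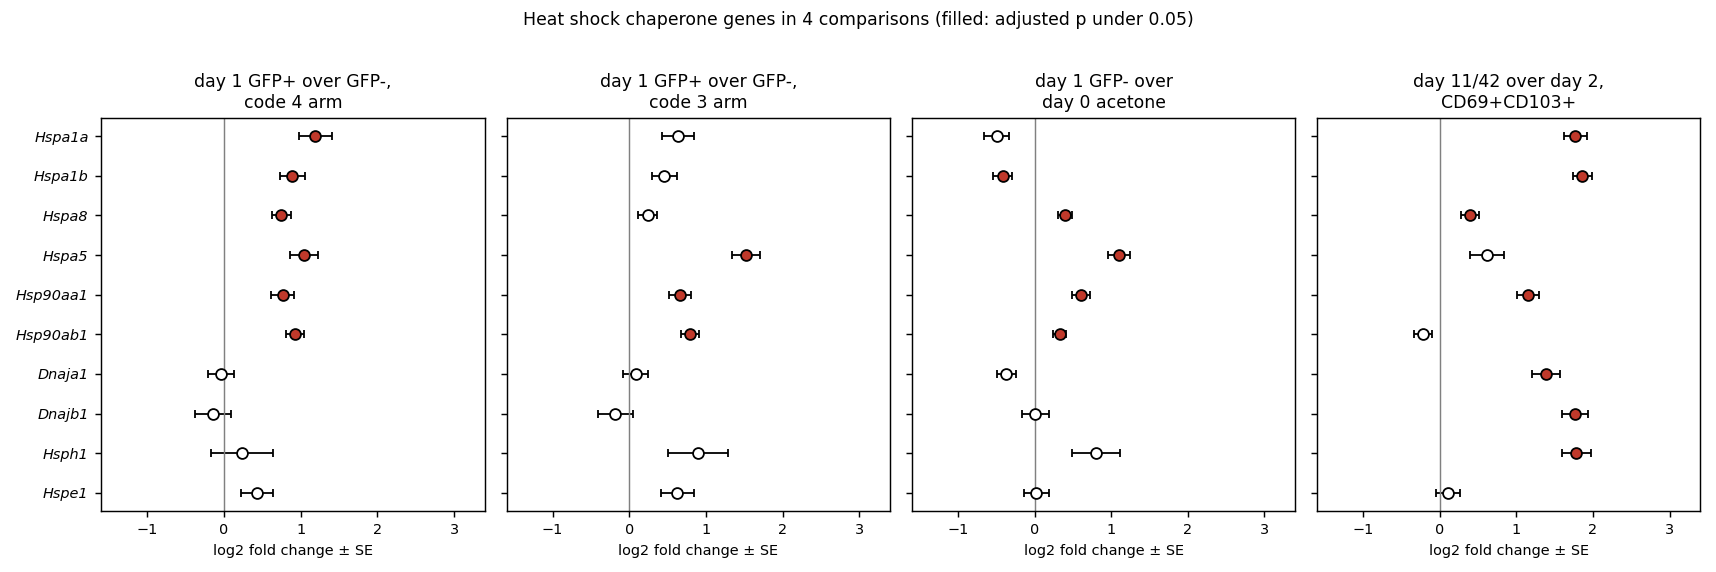
Log2 fold change of each chaperone gene with its SE (x axis) in 4 comparisons, filled where the adjusted p was under 0.05. Hspa5 lies furthest right in the code 3 arm (1.52 ± 0.18), and the J-domain genes Dnaja1 and Dnajb1 lie near 0 in both GFP comparisons and at 1.39 and 1.76 in day 11 and day 42 against day 2.

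Codes 6, 5 and 2, the 3 sets that hold day 0 TA and both day 6 groups, had mean Hspa5 levels below that of day 0 acetone. It had 118 and 118 CPM in code 6, 160.0 and 126 CPM in code 5 and 135 and 100.3 CPM in code 2, and none of the 3 sets passed against day 0 acetone (-0.19 ± 0.17, -0.10 ± 0.17 and -0.20 ± 0.17). Against day 0 acetone, code 6 had 1 gene higher and 3 lower (4.56% of all genes called, 2.86% as higher and 1.7% as lower), code 5 had none (0.897%; smallest adjusted p 0.366) and code 2 had 3 lower (3.53%, 2.34% as lower). Dnaja1 was 146 and 136 CPM in code 6 and 138 and 143 CPM in code 2, against 263, 237 and 310.5 CPM at day 0 acetone, and fell by 0.78 ± 0.15 in each (edgeR adjusted p = 0.0045 and 0.00525). These calls were lost without library B of code 6 (adjusted p 0.137) and without library A of code 2 (adjusted p 0.0691). The other calls, Hspa8 and Hsp90ab1 in code 2 and Hspa1a and Hspa8 in code 6, held in 13, 15, 12 and 11 of 17 refits without 1 library. Each was also lost with a replicate block by library letter. Hspa1b in code 6 was 896 and 1166 CPM, below every day 0 acetone library, and fell by 0.80 ± 0.15 (edgeR adjusted p = 0.00301), a call lost without library A of code 6 (adjusted p 0.121). Keratinocyte markers summed to 8205 to 8814 CPM in code 6 (13 of 23 higher than at day 0 and 1 lower), 1525 to 1558 CPM in code 5 (13 lower) and 2032 to 2161 CPM in code 2 (5 lower and 1 higher), against 4356 to 4791 CPM at day 0 acetone. Krt77 was at 0 in codes 5 and 2, and Krt6b and Ivl in code 2. Mononuclear phagocyte markers summed to 369 to 489 CPM in code 6, 397 to 424 CPM in code 5 and 75.2 to 124 CPM in code 2, against 356 to 511 CPM at day 0 acetone, and Csf1r, Tyrobp and Lyz2 were among 6 of them at 0 in code 2. Every member call of codes 6 and 2 against day 0 held with these marker genes left out; the part of other cells' own chaperone RNA was not tested.

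Code 2 had the lowest Hspa8 and Hsp90ab1 levels of the experiment. Hspa8 had 1139 and 1242 CPM in code 6 and 1178 and 1125 CPM in code 5, against 609 and 701 CPM in code 2, so neither set overlapped it. The log2 fold changes were 0.86 ± 0.12 for code 6 and 0.63 ± 0.12 for code 5 (edgeR adjusted p = 0.000118 and 0.00306; 8.88% and 5.71% of all genes called), and the second was lost without library A of code 2 (adjusted p 0.0667). Hsp90ab1 had 1413 and 1598 CPM in code 6, against 966 and 835 CPM in code 2, and was 0.73 ± 0.12 higher (edgeR adjusted p = 0.000347). Hspe1 was the gene with its highest mean in code 2, and had 299.9 and 202 CPM in code 5, against 414 and 393 CPM in code 2 (-0.87 ± 0.21; edgeR adjusted p = 0.0159), a call lost without library A of code 2 or library B of code 5 (adjusted p up to 0.394). Between codes 6 and 5 (1.98% of all genes called), Hspa1b was lower in code 6 (-0.65 ± 0.16) and Hsp90ab1 higher (0.46 ± 0.12), with edgeR adjusted p of 0.0437 and 0.0483. Those 2 calls held in 8 and 10 of 17 refits without 1 library (adjusted p up to 0.501 and 0.507). Mitochondrial genes took 22.2 to 25.4% of counts in code 6 and 24.4 to 24.5% in code 5, against 34.9 to 36.3% in code 2. The marker sums of other cells given above also differed from code 2, with 18 of 23 keratinocyte markers higher and 1 lower in code 6 and 2 higher and 10 lower in code 5, and with 4 of 15 mononuclear phagocyte markers higher in each. With mitochondrial genes or with the marker genes left out, the calls of Hspa8 and Hsp90ab1 against code 2 held.

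In the second experiment all genes except Hspe1 differed among the 8 sets (9 of 10, against 11.6% of 12236 genes tested; edgeR's quasi-likelihood test, adjusted p 4.74e-11 for Hspa1b to 0.00831 for Hsp90ab1, and 0.163 for Hspe1). The widest spans of set means were 10.2-fold for Hspa1b, 9.09-fold for Hspa1a, 6.83-fold for Dnajb1 and 5.1-fold for Hsph1. The narrowest were 1.43-fold for Hspe1, 1.67-fold for Hsp90ab1 and 1.93-fold for Hspa8. Set 4 of the day 11 and day 42 groups had the highest mean of all 10 genes.

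**Figure D4:**
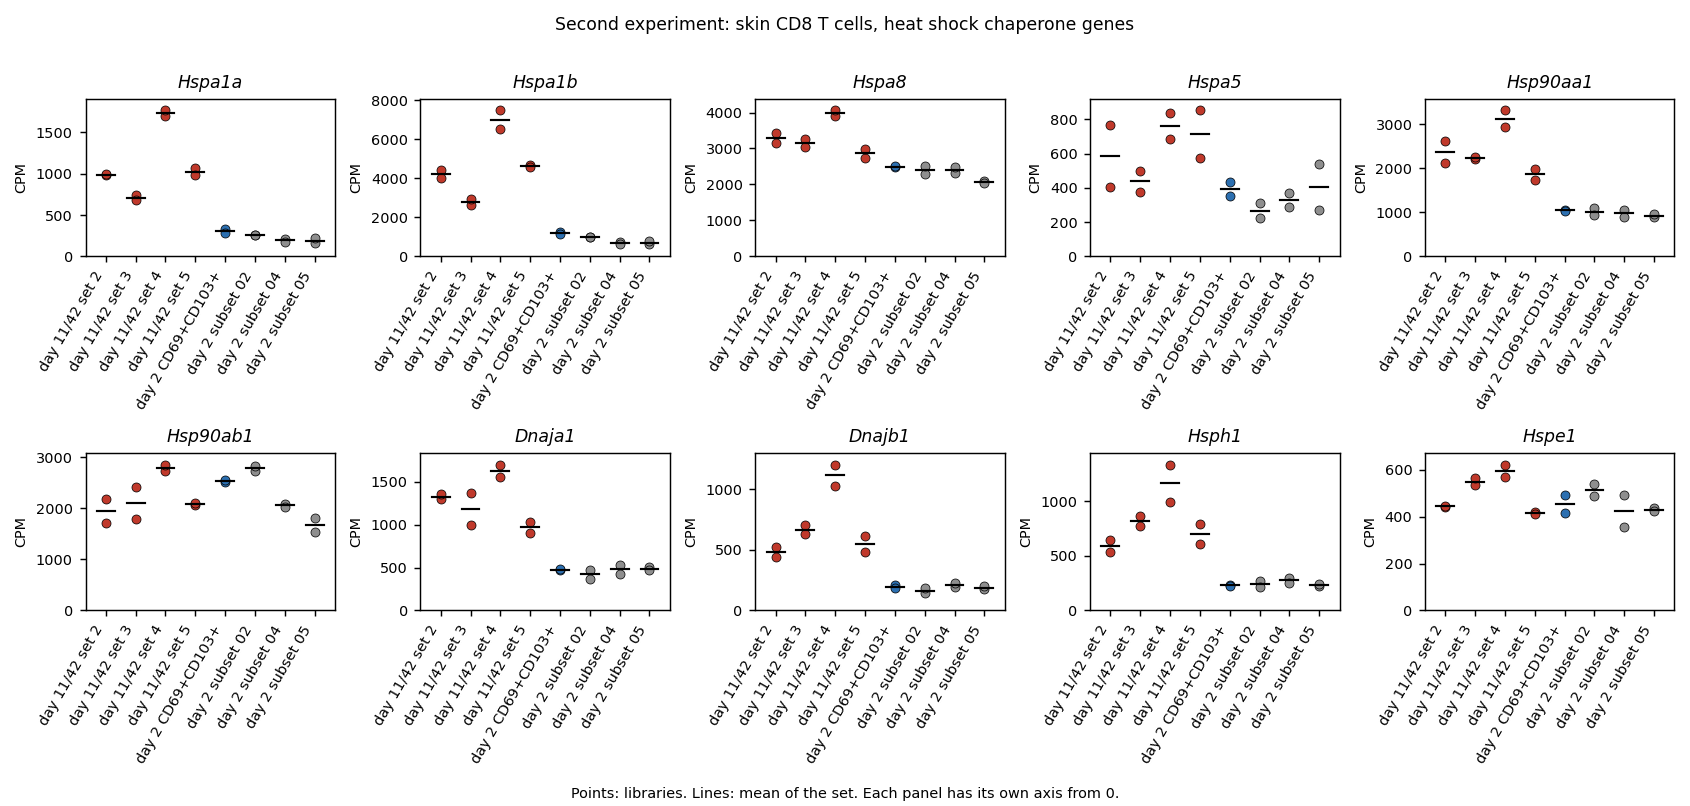
Levels of the 10 chaperone genes (y axis, CPM, linear from 0) in each library of the second experiment, by set, with a line at the set mean. For Hspa1a, Hspa1b, Hspa8, Dnaja1, Dnajb1, Hsph1 and Hsp90aa1 every day 11 or day 42 library lies above every day 2 library. The share of all genes that do so was not counted. Set 4 has the highest mean in all 10 panels.

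CD69+CD103+ cells of day 11 and day 42, as the mean of their 4 sets, had 7 of the 10 genes higher than CD69+CD103+ cells of day 2 and none lower. In that comparison 8.21% of all tested genes were called, 3.33% as higher and 4.89% as lower. The median log2 fold change was 1.27 for the 10 genes and -0.07 for all genes. The late cells came from mice treated with TA or acetone and the day 2 cells from untreated mice, so time and treatment cannot be told apart here.

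Hspa1b, the inducible Hsp70, had 2648, 4477 and 7477 CPM as lowest, median and highest of the 8 late libraries, against 1267 and 1143 CPM at day 2. Its neighbour Hspa1a had 684, 993 and 1768 CPM, against 327 and 288 CPM. Every late library lay above both day 2 libraries for each gene, and the log2 fold changes were 1.86 ± 0.12 and 1.77 ± 0.15 (edgeR's quasi-likelihood test, adjusted p = 2.57e-08 and 4.03e-07). Dnajb1, their J-domain partner, had 441, 622 and 1202 CPM as lowest, median and highest, against 207 and 183 CPM at day 2 (1.76 ± 0.17; edgeR adjusted p = 2.10e-06). Hsph1 had 532, 785 and 1337 CPM, against 237 and 221 CPM (1.78 ± 0.19; edgeR adjusted p = 4.48e-06). Dnaja1 had 902, 1323 and 1699.9 CPM, against 470.5 and 479.7 CPM (1.39 ± 0.18; edgeR adjusted p = 5.89e-05). None of these 3 genes overlapped between late and day 2 libraries. Hsp90aa1 had 1738, 2224 and 3316 CPM, against 1063 and 1034 CPM, and also did not overlap (1.15 ± 0.14; edgeR adjusted p = 3.01e-05). These 6 genes kept their calls in all 8 other settings and in all 16 refits that left out 1 library.

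The constitutive and organelle genes had fold changes nearer 0. Hspa8 had 2745, 3207 and 4059.9 CPM as lowest, median and highest of the late libraries, against 2487 and 2499 CPM at day 2, with no overlap in CPM. With TMM scaling Hspa8 in library 1 of set 5 (log2 CPM 11.2912) lay below both day 2 libraries (11.3285 and 11.2942). Its log2 fold change was 0.39 ± 0.12 (edgeR adjusted p = 0.0418), and the call held in 2 of 16 refits without 1 library, with an adjusted p of up to 0.402. The libraries whose loss kept the call were the pair of subset 05, and it was also lost with no filter on low counts and without immediate-early genes. Hsp90ab1 had 1708, 2141 and 2859 CPM in late libraries, against 2524 and 2561 CPM at day 2, which overlapped (-0.22 ± 0.12; edgeR adjusted p = 0.316). Hspa5 had 377, 631 and 853 CPM, against 352 and 436 CPM (0.62 ± 0.22; adjusted p = 0.104 in edgeR's test, and called by DESeq2). Hspe1 had 411, 491 and 622 CPM, against 417 and 493 CPM (0.11 ± 0.16; edgeR adjusted p = 0.788). The late and day 2 libraries of these last 2 genes also overlapped.

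Of 35 genes listed as other cytosolic chaperones and cochaperones, 3 were higher and 1 lower in late cells (median 0.09). The higher ones were the J-domain genes Dnaja4 (2.29 ± 0.39) and Dnajb4 (1.70 ± 0.32) and the collagen chaperone Serpinh1 (3.93 ± 1.07). Serpinh1 stands in that list but is a chaperone of the endoplasmic reticulum, not of the cytosol. Of 30 endoplasmic reticulum genes, 3 were higher and 1 lower (median 0.13; Ddit3 2.28 ± 0.39, Dnajb9 1.27 ± 0.25 and Atf4 1.03 ± 0.22). Of 13 CCT and prefoldin genes, 1 was higher and 5 lower (median -0.74; Cct3 -1.47 ± 0.23, Cct6a -0.85 ± 0.19 and Cct2 -0.74 ± 0.17). Of 10 mitochondrial genes none passed, Hspd1 included, and neither of the 2 heat shock factor genes tested did. Of 25 immediate-early genes, 16 were higher and 0 lower (median 1.16; Fosb 2.77 ± 0.17, Fosl2 2.23 ± 0.15 and Fos 1.97 ± 0.16), and 6 of the 10 chaperone genes were still called with this list left out, Hspa8 being the one lost. Whether the chaperone and immediate-early genes of these cells were raised before or during tissue handling was not tested.

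Late libraries were shallower, with 2937814 to 7407069 counts against 11395588 and 11532881 at day 2, and 7 of the 10 genes were called at equal depth as well. Keratinocyte markers summed to 2686 to 7541 CPM in late libraries and 6708 to 10247 CPM at day 2, with 1 of 24 higher and 8 lower. Neutrophil markers summed to 2.47 to 18.3 CPM in late libraries and 122 to 131 CPM at day 2, with S100a8, Csf3r, Retnlg, Camp and Ltf at 0 in late libraries and Csf3r, Camp and Ltf at 0 at day 2. Mononuclear phagocyte markers (368 to 990 CPM in late libraries and 555 to 630 CPM at day 2) and fibroblast markers (68.2 to 435 CPM in late libraries and 112 to 188 CPM at day 2) overlapped. With the marker genes of other cells left out, the same count of 7 genes passed. The part of these cells' own chaperone RNA in the difference was not tested.

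Among the 4 late sets, Hspa1b had 4400.0 and 4003 CPM in set 2, 2648 and 2920.3 CPM in set 3, 6526 and 7477 CPM in set 4 and 4689 and 4554 CPM in set 5. Set 4 was highest and set 3 lowest, with sets 5 and 2 between them and not overlapping each other. The 4 sets are day 11 or day 42 with TA or acetone, so 1 of the 3 ways to pair them compares days, 1 compares treatments and 1 is their interaction, and the headers do not say which is which. Sets 4 and 5 had Hspa1b 0.66 ± 0.10 higher than sets 2 and 3 (edgeR adjusted p = 0.00103; 1.67% of all genes called). Sets 3 and 5 had it lower than sets 2 and 4 (-0.60 ± 0.10; adjusted p = 0.0087 in edgeR's test; 0.474% called). Hspa1a passed in the same 2 ways, at 0.59 ± 0.12 and -0.62 ± 0.12 (edgeR adjusted p = 0.0159 and 0.0255). The Hspa1a calls were lost in 4 and 6 of 16 refits without 1 library: set 2 library 1, set 3 library 2, set 4 library 1 and set 5 library 1 in the first way, and set 2 library 2, set 3 library 2 and both libraries of sets 4 and 5 in the second (adjusted p up to 0.0632 and 0.0929).

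In the third pairing, sets 3 and 4 against sets 2 and 5 (0.4% of all genes called), Dnajb1 and Hsph1 passed. Dnajb1 had 701 and 632 CPM in set 3 and 1027 and 1202 CPM in set 4, against 441 and 522 CPM in set 2 and 485 and 611 CPM in set 5. No library of sets 2 and 5 reached sets 3 and 4, and the fold change was 0.85 ± 0.14 (edgeR adjusted p = 0.00653). Hsph1 had 775 and 868 CPM in set 3 and 998 and 1337 CPM in set 4, against 532 and 641 CPM in set 2 and 795 and 612 CPM in set 5, which overlapped slightly in CPM. With TMM scaling Hsph1 did not overlap (log2 CPM of 9.74 as lowest in sets 3 and 4, against 9.50 as highest in sets 2 and 5). It was 0.71 ± 0.15 higher (edgeR adjusted p = 0.0384), a call lost without set 2 library 1, either library of set 3, set 4 library 2 or either library of set 5 (adjusted p up to 0.124). Hspa1b did not pass in this pairing (0.11 ± 0.10; edgeR adjusted p = 0.794). Set 3 had the lowest mean of Hspa1b (2784 ± 193 CPM, SD, n = 2) and of Hspa1a (712 ± 40.0 CPM) among the late sets and the second highest of Dnajb1 (666 ± 49.0 CPM) and Hsph1 (822 ± 65.2 CPM).

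Markers of other cells moved with these pairings too. Mononuclear phagocyte markers summed to 368 to 459 CPM in sets 3 and 5, against 580 to 990 CPM in sets 2 and 4 (5 of 16 lower), keratinocyte markers to 2686 to 5482 CPM against 5280 to 7541 CPM (4 of 24 lower) and fibroblast markers to 180 to 435 CPM against 68.2 to 118 CPM (1 of 10 higher), with no marker of these 3 lists at 0. Sets 4 and 5 had 1 keratinocyte marker higher and 2 lower than sets 2 and 3, and sets 3 and 4 had 4 higher than sets 2 and 5. The 2 member calls of each pairing held with marker genes of other cells left out.

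At day 2, few of the 10 genes passed a test between the 4 subsets. Against the mean of the other 3 subsets, CD69+CD103+ cells had 1 gene higher, Hspa1b (0.368% of all genes called, 0.319% as higher). It had 1267 and 1143 CPM in CD69+CD103+ cells, against 998 and 969 CPM in subset 02, 717 and 652 CPM in subset 04 and 638 and 773 CPM in subset 05. Both CD69+CD103+ libraries lay above the other 6, and the fold change was 0.68 ± 0.11 (edgeR's quasi-likelihood test, adjusted p = 0.00487). The call was lost without library 1 of the CD69+CD103+ cells (adjusted p 0.207). Against single subsets, Hspa1b was higher in CD69+CD103+ cells than in subset 04 (0.90 ± 0.14, 0.417% of all genes called) and subset 05 (0.80 ± 0.14, 0.27% called), with edgeR adjusted p of 0.00369 and 0.0118, and did not pass against subset 02 (0.36 ± 0.14, adjusted p = 0.702; 0.237% called). These calls were also lost without CD69+CD103+ library 1, the first of them without library 2 of subset 04 and the second without either library of subset 05 (adjusted p up to 0.108 and 0.186).

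Of the 3 ways to pair the day 2 subsets, which are CD69, CD103 and their interaction in an order the headers do not give, 1 called any of the 10 genes. Subsets 04 and 05 had 3 genes lower than CD69+CD103+ cells and subset 02 together (1.66% of all genes called, 0.752% as lower). Hspa1b had 638 to 773 CPM in subsets 04 and 05, against 969 to 1267 CPM in the other 2, and Hsp90ab1 had 1542 to 2093 CPM, against 2524 to 2831 CPM. Neither gene overlapped between the 2 pairs of subsets. They fell by 0.67 ± 0.10 and 0.54 ± 0.11 on the log2 scale (edgeR adjusted p = 0.00105 and 0.0109), and the Hsp90ab1 call was lost without library 2 of subset 04 (adjusted p 0.059). Hspa1a fell by 0.59 ± 0.12 (156 to 225 CPM against 260.0 to 327 CPM; edgeR adjusted p = 0.0158), a call lost without library 1 of subset 02, of CD69+CD103+ cells or of subset 05, or library 2 of subset 04 (adjusted p up to 0.114). Mononuclear phagocyte markers summed to 555 to 630 CPM in CD69+CD103+ cells, against 132 to 702 CPM in the other 3 subsets (4 of 16 higher), keratinocyte markers to 6708 to 10247 CPM against 4125 to 9345 CPM (2 of 24 higher) and fibroblast markers to 112 to 188 CPM against 38.9 to 166 CPM (1 of 10 higher). Pdgfra was at 0 in all 4 subsets and Cd209a in those other than CD69+CD103+ cells. Subsets 04 and 05 had 3 mononuclear phagocyte markers and 1 keratinocyte marker higher and 2 fibroblast markers lower than the other 2 subsets. The member calls of these day 2 comparisons held with marker genes of other cells left out. The other pairings called 0.302% and 0.0327% of all genes and none of the 10 (smallest adjusted p 0.665 in the first).

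The 10 genes were also compared by their mean log2 CPM over the 8 sets of each experiment. The sets share library preparation and differ in depth and in the RNA of other cells, and these correlations are given as description only. In the first experiment Hspa5 went with Hsp90aa1 (Pearson r = 0.989), Hsph1 (0.967) and Hsp90ab1 (0.922), and Hspa1a with Hspa1b (0.968), while Dnajb1 had r of -0.172 to 0.332 with the other 9 genes. In the second experiment Dnajb1 went with Hsph1 (0.994), Dnaja1 with Hsp90aa1 (0.99) and Hspa1a with Hspa1b (0.999). There Hsp90ab1 had r of 0.031 (with Hspa5) to 0.674 (with Hspe1) with the other 9 genes.

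Among all genes at 50 CPM or more in at least 1 set, those whose set means were most like Hspa5 in the first experiment were Hsp90aa1, Cd53 and Eif4g1 (r = 0.989, 0.987 and 0.986, of 2809 genes), and in the second Spsb1, 8430410A17Rik and Junb (0.983, 0.98 and 0.979, of 3426 genes). Those most like Hsp90ab1 were Hnrnpab, Naa50 and Rheb in the first (0.99, 0.986 and 0.982) and Utp14a, Ndufa5 and Pigx in the second (0.902, 0.866 and 0.863). Those most like Hspa1b were Hspa1a, Luc7l2 and Kdm6b in the first (0.968, 0.955 and 0.948) and Hspa1a, Cdkn1a and Styk1 in the second (0.999, 0.989 and 0.987).

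**Figure D5:**
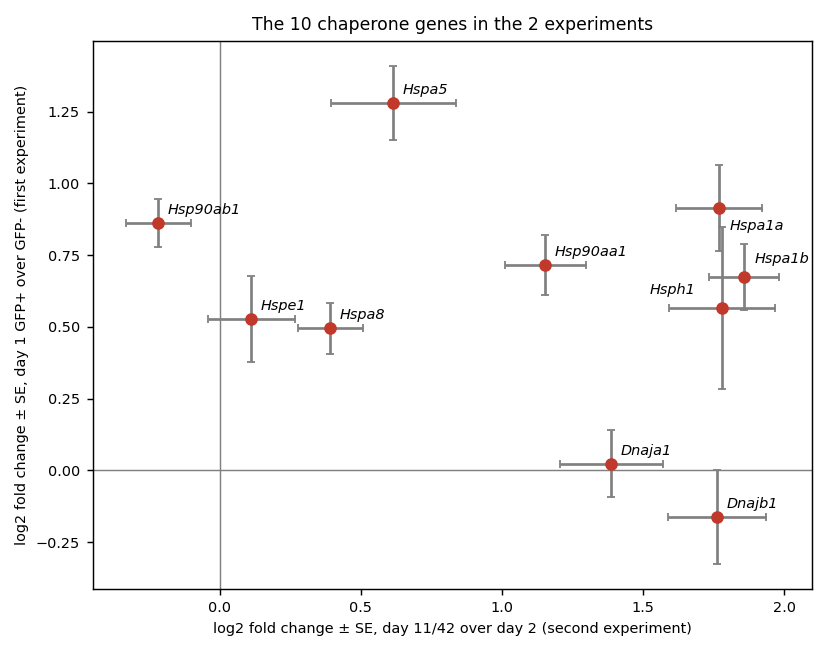
Log2 fold change with its SE of each chaperone gene in day 11 and day 42 against day 2 cells (x axis, second experiment) and in day 1 GFP-positive against GFP-negative cells (y axis, first experiment). Hspa5 and Hsp90ab1 lie high and to the left, Dnaja1 and Dnajb1 low and to the right, and Hspa1a, Hspa1b and Hsp90aa1 are above 0 on both axes.

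The main comparisons of the 2 experiments share no library and are set side by side here. In day 11 and day 42 against day 2, and in day 1 GFP-positive against GFP-negative cells, the log2 fold changes were 1.76 ± 0.17 and -0.16 ± 0.16 for Dnajb1 and 1.39 ± 0.18 and 0.02 ± 0.12 for Dnaja1. They were -0.22 ± 0.12 and 0.86 ± 0.08 for Hsp90ab1 and 0.62 ± 0.22 and 1.28 ± 0.13 for Hspa5. Hspa1a, Hspa1b and Hsp90aa1 passed in both as higher. So did Hspa8, but its late call held in just 2 of 16 refits without 1 library. That call was also lost with no filter on low counts and without immediate-early genes. Of all tested genes, 3.33% passed as higher in the first of these comparisons and 5.59% in the second, and the share passing in both was not counted. Over the 10 genes the fold changes of these comparisons had a Pearson r of -0.326 and a Spearman rho of -0.079, given as description. Levels were not tested between the experiments, which stand in separate tables and differ in mouse strain.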

How the data were processed

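RNA of sorted skin CD8 T cells was measured by CEL-seq2 in 33 libraries. The tables deposited by the authors hold raw counts, reads per gene and library, per the file headers. Per the submitters' processing notes, the tools were bcl2fastq 2.2, BWA 0.7.15 and HTSeq, and the genome was GRCm38. Collapsing of reads by molecular barcode and the strand setting were not given in the sources used here. Rows of external control transcripts (ERCC) were left out. CPM scales counts to a library's plain total, while fold changes also use TMM scaling. Overlaps between libraries refer to plain CPM unless TMM scaling is named, and some differ after that scaling. Depth ran from 2442825 to 13629838 counts per library, and each member had at least 37 counts in every library.

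Each experiment was fitted apart in R 4.3.3 with edgeR 4.0.16 (filterByExpr by column set, TMM, robust quasi-likelihood F test, 1 mean per column set, all libraries sharing 1 estimate of the spread), on 11588 and 12236 genes, all 10 members among them. Benjamini-Hochberg adjustment ran over every gene tested in a comparison, with calls at adjusted p under 0.05; the ± beside a log2 fold change is its SE. The fits were tested on simulated data. No value column was left without a place in the column map. Groups come from the labels; codes whose treatment, day or subset the headers do not give were tested by code. The members and gene lists were chosen with earlier results of these data known. All 10 members are named, and of each other list up to 3 called genes with the smallest p. Genes of like pattern are the 3 with the highest Pearson r of mean log2 CPM (prior count 2) over 8 sets. Gene positions and overlaps come from GENCODE vM21 (GRCm38), promoters from RefSeq. Tables and figures were made with Python 3.11.15 and pandas 2.3.3.

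Alternatives were RLE size factors, no filter on low counts, DESeq2 1.42.0, a replicate block by library letter, leaving out mitochondrial genes, marker genes of other cells or each library, and summing Hspa1a and Hspa1b. Thinning to equal depth and leaving out immediate-early genes were added after seeing the data.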

Additional observations from a re-analysis of the deposited data

How the results depend on the processing

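Of 84 member calls over all comparisons, 47 held under every alternative and leave-one-out refit, 67 held under every alternative that kept all libraries, and 0 reversed. RLE size factors left 1 gene called between arms in GFP-positive cells (2 in the reported fit) and 1 between codes 6 and 5 (2). Without the low-count filter, 6 genes (3) were called for GFP in the code 3 arm and 1 (2) between arms in GFP-positive cells. DESeq2 called 1 gene (0) for the difference in GFP effect, 5 (3) between arms in GFP-negative cells, 2 (1) for day 2 CD69+CD103+ cells against the other subsets, 2 (1) against subset 04, 3 (1) against subset 05, and 6 (2) for sets 3 and 4 against sets 2 and 5. Without marker genes of other cells, 5 (3) were called between arms in GFP-negative cells. With Hspa1a and Hspa1b summed and counted under both names, 5 (3) were called there, 1 (2) between codes 6 and 5, and 2 (1) in each of the day 2 comparisons of CD69+CD103+ cells just named. After thinning, 1 (2) was called between arms in GFP-positive cells, and without immediate-early genes 1 (2) between codes 6 and 5; both were chosen after seeing the data.

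Leaving out each library in turn gave 1 to 5 called genes between arms in GFP-negative cells, 1 to 2 in GFP-positive cells, 2 to 5 for day 1 GFP-negative cells against day 0, 2 to 4 for those of code 3 and 1 to 3 for those of code 4. It gave 1 to 4 for code 2 and 1 to 4 for code 6 against day 0, 0 to 2 for code 5 against code 2, and 0 to 2 for code 6 against code 5. In the second experiment it gave 0 to 2 for CD69+CD103+ cells against the other subsets, 0 to 1 against subsets 04 and 05 each, 1 to 3 for subsets 04 and 05 against the others, and 1 to 2 for each pairing of late sets. For GFP over both arms it gave 6 to 7, and for late against day 2 cells 6 to 7.

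Library letters are shared between sets of the first experiment. Over 28 pairs of A libraries and 11588 genes, deviations from the set mean had correlations of -0.06 to 0.033, none over 0.1. Most sets hold 2 libraries, and weak correlations cannot show whether same-letter samples came from the same mice. With a replicate block by letter, 1 gene (2) was called between arms in GFP-positive cells, 2 (5) for day 1 GFP-negative cells against day 0, 1 (3) for code 2 and 2 (4) for code 6 against day 0, and 0 (2) between codes 6 and 5; for GFP over both arms it was 7 (7). No paired analysis was possible in the second experiment because its columns carry no letters.

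Over all genes, DESeq2 called more than 1.5 times as many as the reported fit in 24 of 31 comparisons, at most 8.5 times. Examples are 1273 against 775 between arms in GFP-negative cells and 299 against 103 for the difference in GFP effect. The fit without the low-count filter did so in 17 of 31, at most 20.25 times. Higher member counts under these settings therefore cannot be read as specific to the chaperones. Calls over all genes also moved in the leave-one-out refits, so the same holds for the ranges of member counts there. No alternative turned the direction of a called member. Most sets hold 2 libraries, and the smallest member count was 37, for Hsph1.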
